A study of Mus musculus with 6 samples.

Results

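The miR-181 family was followed in small RNA libraries of mouse liver immune cells through its 4 guide strands, the 5p arms miR-181a-5p, miR-181b-5p, miR-181c-5p and miR-181d-5p. They were taken by name from a count table of 1960 mature miRNAs, and all 4 were listed there and passed the filter on low counts, which left 297 miRNAs for testing. There were 3 groups of 2 libraries. All mice were wildtype C57BL/6J females, 10 weeks old. In ConA+D8THC the mice had concanavalin A (ConA, a T cell mitogen from jack bean that brings on hepatitis) at 12.5 mg/kg through the retro-orbital vein. Their D8THC (delta-8-tetrahydrocannabinol, a cannabinoid) was given at 20 mg/kg in 100 μL into the peritoneum, once 15 to 18 h ahead of ConA and once 30 min later than it. In ConA+Vehicle the mice had this ConA dose and only the solvent, DMSO in corn oil. In Vehicle the mice had the solvent alone, with no disease. The labels call the libraries of a group biological replicates; the number of mice behind each library and the hour of collection are not stated in the sources.

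The miR-181 family is best known for setting the sensitivity of T cells to antigen. In mouse T cells miR-181a represses several phosphatases that dampen T cell receptor signalling, among them Ptpn22, Ptpn11, Dusp5 and Dusp6. It is abundant in immature thymocytes and lower in mature T cells. Mice without the Mir181a-1 and Mir181b-1 hairpins make few natural killer T cells, the lymphocytes on which ConA hepatitis in mice depends. Outside lymphocytes, miR-181b restrains NF-kappaB signalling in vascular endothelium by repressing an importin.

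The 4 strands are shown first because their shared seed and near identity set what the counts can separate. Sequences are from RefSeq (GRCm38.p6), with the seed, bases 2 to 8, in capitals.
miR-181a-5p: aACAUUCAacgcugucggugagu
miR-181b-5p: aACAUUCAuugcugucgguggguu
miR-181c-5p: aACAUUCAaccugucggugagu
miR-181d-5p: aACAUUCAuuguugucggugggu
All 4 carried the same seed, and no other of the 1679 mature mouse miRNA names in the RefSeq table had it. Counted from 1 at the 5′ end, miR-181b-5p and miR-181d-5p differed by C12U and by 1 more base at the 3′ end of miR-181b-5p. miR-181c-5p was 1 base removed from miR-181a-5p by edit distance, being 22 nt long where miR-181a-5p has 23 nt. The 4 strands thus fell into a pair of near-identical couples, a with c and b with d, which differed from each other right after the seed. The sources do not say how reads that fit more than 1 strand were assigned, so the split within a couple is less certain than its sum.

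The family comes from 6 hairpins in 3 clusters (build mm10, GENCODE M21). Mir181a-1 (chromosome 1, 137966455 to 137966541) and Mir181b-1 (chromosome 1, 137966639 to 137966718) lie 97 bp apart on the plus strand, in an exon of the non-coding RNA A430106G13Rik and an intron of Gm4258. Mir181a-2 (chromosome 2, 38852735 to 38852810) and Mir181b-2 (chromosome 2, 38853830 to 38853918) lie antisense within an intron of Nr6a1, a nuclear receptor gene. Mir181c (chromosome 8, 84178873 to 84178961) and Mir181d (chromosome 8, 84178716 to 84178787) lie 85 bp apart on the minus strand in an intron of Nanos3, a germ cell gene. The 5p strands of miR-181a and miR-181b are identical between chromosomes 1 and 2, so only the 3p strands, the usual passengers, separate those loci.
miR-181a-1-3p: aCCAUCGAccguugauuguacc
miR-181a-2-3p: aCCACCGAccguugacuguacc
miR-181c-3p: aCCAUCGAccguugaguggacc
These 3p strands are shown because they report on locus and arm use below. miR-181a-1-3p differed from miR-181a-2-3p at U5C and U16C and from miR-181c-3p at U16G and U19G, positions again counted from the 5′ end. miR-181a-1-3p and miR-181c-3p shared a seed with each other and with no other name in the table.

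The libraries held 322764 to 1172389 counts, so that 3 counts corresponded to 2.56 to 9.29 CPM (counts scaled to a common library size), and the ConA+Vehicle libraries were the shallowest. Markers of several cell types were present in every library beside those of lymphocytes. The lymphocyte list (miR-150 and miR-342 strands) took 0.607 to 0.999% of counts in ConA+D8THC, 0.834 to 1.08% in ConA+Vehicle and 0.517 to 0.763% in Vehicle. The pan-haematopoietic miR-142a arms took 7.72 to 11.2%, 9.03 to 10.3% and 2.53 to 7.31% in the same order of groups, and the endothelial miR-126a arms 20.7 to 26.7%, 12.8 to 13.2% and 32.7 to 34.2%. The 6 hepatocyte markers took 5.18 to 7.15%, 17.1 to 19.7% and 8.35 to 13.9%. They did not all move alike: in ConA+Vehicle against Vehicle, 5 had a log2 fold change above 0 and miR-122-3p was at log2 -1.191. The myeloid list (miR-223 and miR-511 strands) took 1.48 to 2.18%, 2.76 to 2.92% and 0.348 to 0.365%. Its members went both ways: miR-223-3p was at log2 3.022 and miR-511-3p at log2 -3.095 in ConA+Vehicle against Vehicle. The erythroid, stellate cell and fibroblast, and bile duct lists each took between 0.0434 and 1.32% in every library. No marker on these lists was at 0 throughout. In such bulk libraries, fewer cells of a type and less RNA per cell cannot be told apart, and the part of these shifts in the miR-181 values was not tested.

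miR-181a-5p was the main strand of the family. It averaged 417.5 CPM, scaled by TMM factors like all CPM below, over the 6 libraries and was the 87th most abundant of the 297 tested miRNAs. It exceeded each of the other 3 strands in 6 of 6 libraries, by 5.67 to 10.7 times. miR-181c-5p followed at 58.24 CPM, miR-181b-5p at 52.55 CPM and miR-181d-5p at 50.32 CPM. The order of these last 3 was not fixed: miR-181c-5p lay above miR-181b-5p in 3 of 6 libraries and equalled it in 1, and miR-181b-5p lay above miR-181d-5p in 3 of 6. Mature strands are nearly equal in length, so no length correction was made. Whether the library preparation captured the strands equally was not tested, so levels and shares of different strands compare counts.

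Summed over the 4 strands, the family took 0.0626% and 0.0473% of all counts in ConA+D8THC, 0.0504% and 0.0548% in ConA+Vehicle, and 0.0665% and 0.0642% in Vehicle. In CPM the sum was 527.8 ± 88.4 in ConA+D8THC, 532.2 ± 75.7 in ConA+Vehicle and 675.7 ± 22.1 in Vehicle (SD, n = 2 each). Both groups given ConA lay below Vehicle, without overlap, at 0.781 (ConA+D8THC) and 0.788 (ConA+Vehicle) times the Vehicle mean. Of single tested miRNAs, 37% and 29.3% lay apart in this direction in the same comparisons. The sum rests mostly on miR-181a-5p, which held 67.2 to 74.5% of it over the libraries. ConA+D8THC lay at 0.992 times ConA+Vehicle. No test was run on the sum.

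**Figure D1:**
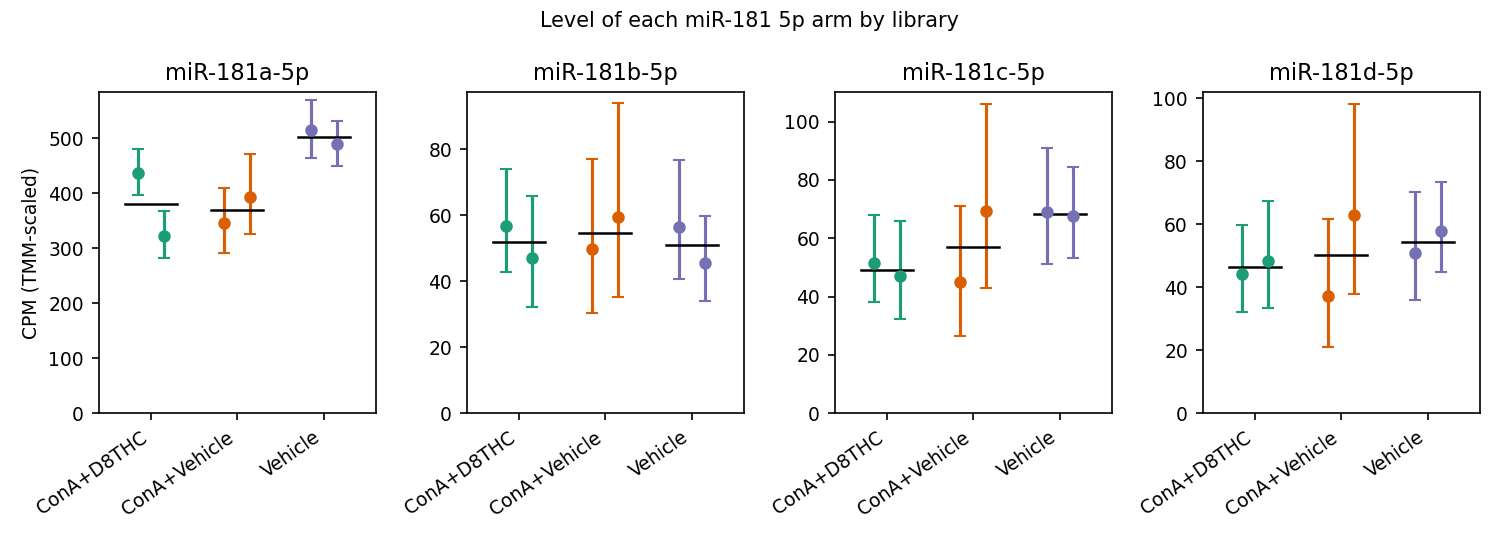
Level of each miR-181 5p arm (y axis, TMM-scaled CPM, linear from 0) in the 2 libraries of ConA+D8THC, ConA+Vehicle and Vehicle. Points are libraries with exact 95% Poisson intervals for counting error, and black lines are group means; miR-181a-5p lies at 323 to 437.6 CPM in the 4 libraries given ConA and at 489.1 and 514.7 CPM in Vehicle, while the other 3 strands lie between 37.4 and 69.5 CPM with intervals that overlap across groups.

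The first comparison, ConA+Vehicle against Vehicle, asked whether the family differed in mice with ConA hepatitis. No strand passed the test, and miR-181a-5p was the only one of the 4 whose groups did not overlap. The edgeR quasi-likelihood test called 0 of the 4 strands at an adjusted p under 0.05, against 36.7% of the 297 tested miRNAs. The count was also 0 at an unadjusted p under 0.05, in DESeq2 and in limma-voom. The median log2 fold change of the 4 was -0.21, beside 0.10 over all tested miRNAs.

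miR-181a-5p, the T cell receptor regulator, was at 346.6 and 393.8 CPM in ConA+Vehicle (139 and 119 counts), against 514.7 and 489.1 CPM in Vehicle (373 and 558 counts). Both ConA+Vehicle libraries lay below both Vehicle libraries, as they did for 29.3% of tested miRNAs. The log2 fold change was -0.44 ± 0.25 (SE), with a 95% interval from 0.505-fold to 1.08-fold and an adjusted p of 0.19. The interval holds both a fall to 0.505-fold and a slight rise.

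miR-181b-5p, the strand known from endothelium, was at 49.86 and 59.57 CPM in ConA+Vehicle, against 56.58 and 45.58 CPM in Vehicle. The 2 groups overlapped (log2 0.10 ± 0.35, interval 0.631-fold to 1.82-fold, adjusted p = 0.851). Both endothelial miR-126a arms were called lower in the same libraries: miR-126a-3p averaged 93790 ± 8050 CPM in ConA+Vehicle and 263500 ± 30200 CPM in Vehicle (SD, n = 2 each). Their part in the miR-181b-5p values was not tested.

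miR-181c-5p and miR-181d-5p, the strands of the Nanos3 cluster, moved together between libraries. miR-181c-5p was at 44.88 and 69.5 CPM in ConA+Vehicle, against 69 and 67.5 CPM in Vehicle. miR-181d-5p was at 37.4 and 62.88 CPM in ConA+Vehicle, against 51.06 and 57.86 CPM in Vehicle. For both, ConA+Vehicle replicate 1 was the lowest of the 4 libraries and ConA+Vehicle replicate 2 the highest, so that the groups overlapped. The ConA+Vehicle values rested on 18 and 21 counts of miR-181c-5p and 15 and 19 counts of miR-181d-5p. Neither was called (log2 -0.27 ± 0.35, adjusted p = 0.6, and log2 -0.15 ± 0.37, adjusted p = 0.804), with intervals of 0.485-fold to 1.41-fold and 0.516-fold to 1.58-fold.

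**Figure D2:**
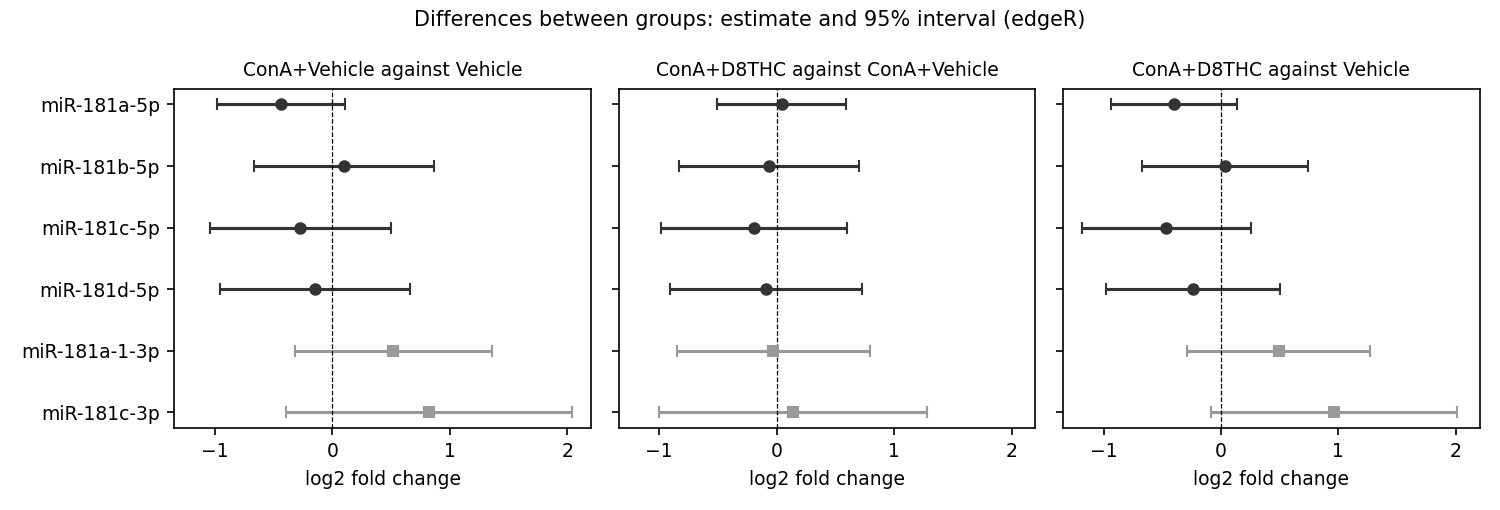
Log2 fold changes (x axis) of the 4 miR-181 5p arms (dark circles) and the 2 tested 3p arms (grey squares) in the 3 comparisons, first-named group over second, with 95% intervals from the edgeR fit. Every interval drawn includes 0; the estimates nearest to 0 for miR-181a-5p (0.04) are in ConA+D8THC against ConA+Vehicle, and both 3p arms have positive estimates against Vehicle.

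The effect of D8THC under ConA was read from ConA+D8THC against ConA+Vehicle. No strand of the family differed beyond the spread between libraries: edgeR called 0 of 4, against 3.7% of the 297 tested miRNAs (0 higher and 11 lower; 5 higher and 9 lower with hepatocyte and endothelial markers left out). The count was again 0 at an unadjusted p under 0.05, in DESeq2 and in limma-voom. The median log2 fold change of the 4 was -0.08, beside -0.04 over all tested miRNAs.

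miR-181a-5p was at 437.6 and 323 CPM in ConA+D8THC, against 346.6 and 393.8 CPM in ConA+Vehicle. The ConA+D8THC libraries lay on either side of the ConA+Vehicle pair and differed more from each other than the group means did. Its log2 fold change was 0.04 ± 0.25 (adjusted p = 0.969), with an interval from 0.705-fold to 1.51-fold. The interval leaves out a halving or a doubling of this strand, but not a smaller difference. miR-181b-5p was at 56.76 and 46.95 CPM in ConA+D8THC (log2 -0.06 ± 0.35, interval 0.563-fold to 1.63-fold). miR-181c-5p was at 51.6 and 46.95 CPM (log2 -0.19 ± 0.36, 0.506-fold to 1.51-fold). miR-181d-5p was at 44.37 and 48.37 CPM (log2 -0.09 ± 0.37, 0.532-fold to 1.66-fold). For none of the 4 strands did the groups lie apart, against 46.8% of tested miRNAs. In the same comparison the lymphocyte list had 0 of 3 tested members called by edgeR, DESeq2 or limma-voom, with 0 at an unadjusted p under 0.05. Over all tested miRNAs edgeR called 3.7%.

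ConA+D8THC was also set against Vehicle, a comparison that shares the Vehicle libraries with the first. The edgeR test called 0 of the 4 strands, against 32.7% of the 297 tested miRNAs, with 0 at an unadjusted p under 0.05 and 0 in DESeq2 and limma-voom. miR-181a-5p, miR-181c-5p and miR-181d-5p were lower in both ConA+D8THC libraries than in either Vehicle library, and groups lay apart in this direction for 37% of tested miRNAs. miR-181a-5p averaged 380.3 ± 81 CPM in ConA+D8THC and 501.9 ± 18.1 CPM in Vehicle (log2 -0.40 ± 0.24, adjusted p = 0.213), and its estimate was -0.62 without ConA+D8THC replicate 1 and -0.14 without ConA+D8THC replicate 2. miR-181c-5p averaged 49.27 ± 3.29 CPM in ConA+D8THC and 68.25 ± 1.06 CPM in Vehicle (log2 -0.46 ± 0.33, adjusted p = 0.274). miR-181d-5p averaged 46.37 ± 2.83 CPM in ConA+D8THC and 54.46 ± 4.81 CPM in Vehicle (log2 -0.24 ± 0.34, adjusted p = 0.599). miR-181b-5p averaged 51.85 ± 6.94 CPM in ConA+D8THC and 51.08 ± 7.77 CPM in Vehicle (log2 0.04 ± 0.32, adjusted p = 0.928).

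miR-181a-5p held 71.8% ± 3.33 of the family's counts in ConA+D8THC, 69.8% ± 3.65 in ConA+Vehicle and 74.3% ± 0.246 in Vehicle (SD, n = 2 each). miR-181b-5p held 9.85% ± 0.337 in ConA+D8THC, 10.3% ± 0.175 in ConA+Vehicle and 7.54% ± 0.904 in Vehicle. miR-181c-5p held 9.42% ± 0.955, 10.6% ± 1.76 and 10.1% ± 0.174 in that order of groups, and miR-181d-5p 8.96% ± 2.04, 9.27% ± 2.07 and 8.08% ± 0.976. The share of miR-181b-5p was higher in all 4 libraries given ConA than in either Vehicle library, though the counting intervals of the libraries overlapped. Its own level averaged 51.85 CPM in ConA+D8THC, 54.72 in ConA+Vehicle and 51.08 in Vehicle, so the share also depends on miR-181a-5p in the sum. How often such shares lie apart was not computed. In counts, there were 7.71 and 6.88 of miR-181a-5p for each of miR-181b-5p in ConA+D8THC, 6.95 and 6.61 in ConA+Vehicle, and 9.1 and 10.7 in Vehicle. Within the Nanos3 cluster, miR-181c-5p stood to miR-181d-5p at between 0.971 and 1.35 across all 6 libraries. The ratio was 1.16 and 0.971 in ConA+D8THC, 1.2 and 1.11 in ConA+Vehicle, and 1.35 and 1.17 in Vehicle. ConA+D8THC thus lay narrowly below Vehicle, and ConA+Vehicle overlapped both. How often such ratios lie apart was not computed.

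**Figure D3:**
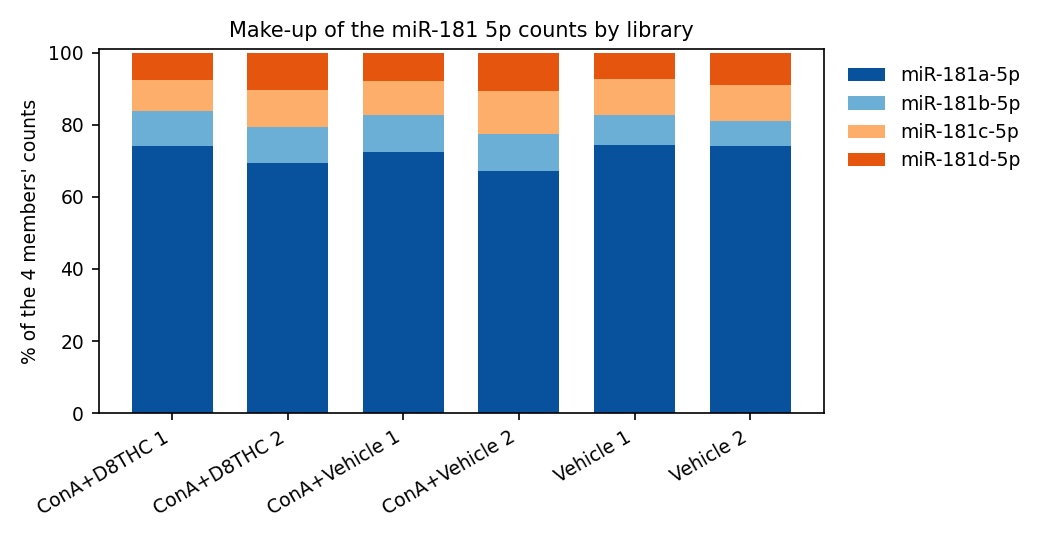
Share of the family's counts (y axis, percent of the 4 members' counts) held by each 5p arm, with 1 bar per library. miR-181a-5p makes up the largest part of each bar, and the miR-181b-5p part is smallest in the 2 Vehicle libraries.

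The 3p strands gave a view of locus and arm. All 6 were listed and 2 passed the filter, miR-181a-1-3p and miR-181c-3p; the 4 others had 1 to 26 counts over all libraries. Of the miR-181a passengers, the chromosome 1 strand miR-181a-1-3p had 57 and 38 counts in ConA+D8THC, 26 and 15 in ConA+Vehicle, and 37 and 35 in Vehicle. The chromosome 2 strand miR-181a-2-3p had 10 and 3 counts in ConA+D8THC, 1 and 1 in ConA+Vehicle, and 4 and 7 in Vehicle. The chromosome 1 strand thus made up 85.1% and 92.7% of the pair in ConA+D8THC, 96.3% and 93.8% in ConA+Vehicle, and 90.2% and 83.3% in Vehicle. The 95% Wilson intervals of these shares reached from 69.4% to 99.3% over the libraries and overlapped across groups, so no difference in locus use was detectable at this depth. Intervals here cover counting error only. The chromosome 2 partner miR-181b-2-3p had 1 count over all libraries, and miR-181b-1-3p had 17.

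Neither tested 3p strand was called in any comparison by edgeR, and 0 of 2 had an unadjusted p under 0.05 or were called by DESeq2 or limma-voom. miR-181a-1-3p was at 58.82 and 54.06 CPM in ConA+D8THC, 64.82 and 49.64 CPM in ConA+Vehicle, and 51.06 and 30.68 CPM in Vehicle (log2 0.49 ± 0.35 for ConA+D8THC and 0.52 ± 0.38 for ConA+Vehicle, each against Vehicle). miR-181c-3p was at 26.83 and 29.88 CPM in ConA+D8THC, 24.93 and 26.48 CPM in ConA+Vehicle, and 6.9 and 20.16 CPM in Vehicle (log2 0.96 ± 0.47, adjusted p = 0.133, and log2 0.82 ± 0.55, adjusted p = 0.272, in the same comparisons). The low Vehicle value rested on 5 counts in replicate 1. Without Vehicle replicate 2 the difference of miR-181c-3p between ConA+D8THC and Vehicle was log2 2.04 and passed (adjusted p = 0.024), while without Vehicle replicate 1 it was log2 0.48 (adjusted p = 0.479). Between ConA+Vehicle and Vehicle it was log2 1.87 and 0.33 without Vehicle replicate 2 and without Vehicle replicate 1, with adjusted p-values of 0.0515 and 0.717. miR-181a-1-3p was at log2 0.18 and 0.87 for ConA+D8THC against Vehicle without Vehicle replicate 2 and without Vehicle replicate 1.

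Estimates of these 3p strands were above 0 against Vehicle and those of their 5p partners below 0, so the arms were set against each other within each library, where library scaling drops out. This comparison was chosen after the values were seen and carries no test. The 5p arm made up 65.8% and 61.1% of miR-181c counts in ConA+D8THC, 64.3% and 72.4% in ConA+Vehicle, and 90.9% and 77% in Vehicle. For miR-181a, with both 3p strands summed, it made up 86.4% and 84.7% in ConA+D8THC, 83.7% and 88.1% in ConA+Vehicle, and 90.1% and 93% in Vehicle. Both shares were lower in all 4 libraries given ConA than in either Vehicle library. This did not hold for miR-181b, whose groups overlapped. With both 3p strands summed, its 5p share was 91.7% and 91.7% in ConA+D8THC, 87% and 100% in ConA+Vehicle, and 91.1% and 94.5% in Vehicle. For miR-181d the share was 95 to 100%, with at most 1 count of miR-181d-3p in a library.

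The log2 ratio of 5p to 3p counts, with 0.5 added to each count, was formed for 67 hairpins with both arms tested. These were the arms paired by the same name, with miR-181a-1 added. Other tested pairs with a numbered 3p arm, such as let-7a-5p with let-7a-1-3p, were left out. Between ConA+Vehicle and Vehicle, 38.8% of them lay apart between the groups with a lower ratio in ConA+Vehicle. The separation of miR-181c and miR-181a-1 was thus a common pattern. For miR-181c the log2 ratio was 0.82 and 1.34 in ConA+Vehicle, against 3.2 and 1.72 in Vehicle. The high Vehicle value was replicate 1, which had the 5 counts of miR-181c-3p. The difference of the means was -1.38, the second lowest of the 67 (median -0.17), but without Vehicle replicate 1 it was -0.64 and ranked 19th, and without ConA+Vehicle replicate 1 it was -1.12 and ranked 13th. In ConA+D8THC the log2 ratio of miR-181c was 0.93 and 0.64, a difference of means from Vehicle of -1.68 and the 4th lowest of 67, where 38.8% again lay apart in this direction. Without Vehicle replicate 1 that difference was -0.94 and ranked 12th. For miR-181a-1 the ratio set miR-181a-5p over miR-181a-1-3p. As miR-181a-5p also comes from Mir181a-2, this is not the ratio of a single hairpin. It ranked 13th lowest in both comparisons, with differences of -0.97 and -0.92 for ConA+Vehicle and ConA+D8THC in that order. Without Vehicle replicate 2 these were -0.65 and -0.59. The arm ratios without single libraries were added after the data were seen. Between ConA+D8THC and ConA+Vehicle the ratio of neither hairpin lay apart, while 49.3% of the 67 did in either direction.

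**Figure D4:**
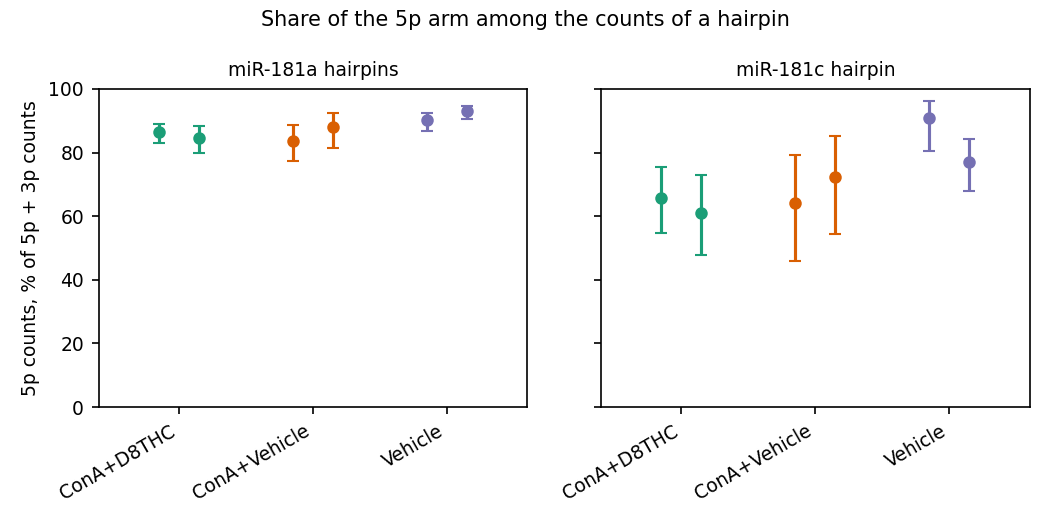
Share of the 5p arm (y axis, percent of 5p plus 3p counts, from 0 to 100) for the miR-181a hairpins, with both 3p strands summed, and the miR-181c hairpin. Points are libraries of ConA+D8THC, ConA+Vehicle and Vehicle with 95% Wilson intervals; the miR-181c points given ConA lie at 61.1 to 72.4% and those of Vehicle at 77 and 90.9%.

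Set beside lymphocyte markers, the family was lower in the libraries given ConA. For every 100 counts of the lymphocyte list there were 6.27 and 7.8 counts of the 4 strands in ConA+D8THC, 4.66 and 6.58 in ConA+Vehicle, and 8.71 and 12.4 in Vehicle. Against the pan-haematopoietic miR-142a arms the numbers were 0.56 and 0.613, 0.49 and 0.607, and 0.91 and 2.54 in the same order. Against the endothelial miR-126a arms the order was different, with 0.302 and 0.178 in ConA+D8THC, 0.395 and 0.415 in ConA+Vehicle, and 0.203 and 0.188 in Vehicle. The direction of the family between ConA+Vehicle and Vehicle thus depended on the cell type markers it was set against, and these ratios carry no test.

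Other miRNAs described in T cell activation or development gave more calls. Their list is not confined to T cells and also holds the pan-haematopoietic miR-142a arms. It was chosen with earlier results of these data known, so its counts only describe the list. Of 22 such miRNAs, all tested, edgeR called 11 higher and 2 lower in ConA+Vehicle than in Vehicle, with a median log2 fold change of 0.78, against 19.9% higher and 16.8% lower over all tested miRNAs. In DESeq2 the counts were 10 and 3, and in limma-voom 10 and 2. Among the 11 called higher by edgeR were miR-17-5p, miR-18a-5p, miR-19a-3p, miR-19b-3p, miR-20a-5p and miR-92a-3p. These all have a hairpin in the same cluster, so their calls are not independent. Of the 22, the most abundant was the inducible miR-21a-5p. It averaged 82360 ± 4690 CPM in ConA+Vehicle and 28380 ± 16900 CPM in Vehicle (log2 1.54, adjusted p = 0.0123). The next most abundant, miR-142a-3p (log2 0.83, adjusted p = 0.222) and miR-29a-3p (log2 0.46, adjusted p = 0.104), were not called. Both had calls under some alternatives: miR-29a-3p with the replicate number as a block (adjusted p = 0.0372), and miR-142a-3p under 5 of 15, with log2 1.86 without Vehicle replicate 1 (adjusted p = 9.27e-06) and 0.25 without Vehicle replicate 2 (adjusted p = 0.624). miR-21a-5p stayed called at log2 2.31 and 1.04 without these libraries. The 2 lower ones were miR-24-3p (log2 -0.86, adjusted p = 0.0114) and miR-27a-3p (log2 -0.63, adjusted p = 0.0274), which share a cluster and were named after their values were seen. For miR-24-3p the adjusted p was 0.0552 and 0.13 when ConA+Vehicle replicate 1 or 2 was left out and 0.0792 when Vehicle replicate 2 was, which ended the call. That of miR-27a-3p ended without ConA+D8THC replicate 2 (0.0865), either ConA+Vehicle library (0.192 and 0.275) or Vehicle replicate 1 (0.0655). Between ConA+D8THC and ConA+Vehicle edgeR called 0 of the 22, against 3.7% of all tested miRNAs, with 1 at an unadjusted p under 0.05. DESeq2 and limma-voom called 0 of them. Against Vehicle, ConA+D8THC had 11 higher and 2 lower (miR-24-3p and miR-214-3p), beside 18.5% and 14.1% of all tested miRNAs. DESeq2 called 11 higher and 1 lower, miR-24-3p, and limma-voom 11 and 2.

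Over all tested miRNAs, 36.7% were called in ConA+Vehicle against Vehicle in either direction and 19.9% higher. The lymphocyte markers gave 1 call of 3 tested there, the higher miR-342-3p, a count that does not set the list apart. It averaged 1893 ± 272 CPM in ConA+Vehicle and 1148 ± 77.9 CPM in Vehicle (log2 0.72, adjusted p = 0.0468); the call ended under 7 of 15 alternatives, among them DESeq2 (0.116), limma-voom (0.0545) and the fits without either ConA+Vehicle library (0.0641 and 0.262) or Vehicle replicate 2 (0.0648). miR-150-5p, a marker of mature lymphocytes, averaged 7669 ± 1230 CPM in ConA+Vehicle and 5443 ± 1770 CPM in Vehicle (log2 0.50, adjusted p = 0.216). It was called with the replicate block (adjusted p = 0.0124) and without Vehicle replicate 1 (log2 0.85, adjusted p = 0.0173). Leaving out Vehicle replicate 2 gave log2 0.21. miR-342-5p was at log2 -0.28 (adjusted p = 0.722).

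The tested miRNAs whose pattern was most like that of miR-181a-5p, by Pearson's r of log2 CPM (prior count 2) over the 6 libraries, were miR-22-5p (r = 0.927), let-7d-3p (0.919), miR-598-3p (0.906), miR-26b-3p (0.905) and miR-335-3p (0.9). Each had its highest values in the 2 Vehicle libraries. Most like miR-181b-5p were miR-338-3p (r = 0.973), miR-1839-5p (0.921), miR-26a-2-3p (0.913), miR-669c-5p (0.868) and miR-101c (0.864). miR-338-3p, for example, had 310.6 and 243.3 CPM in ConA+D8THC, 256.8 and 367.4 CPM in ConA+Vehicle, and 345 and 237.6 CPM in Vehicle, a pattern that separates replicates more than groups. Within the family, r was 0.851 between miR-181c-5p and miR-181d-5p, 0.761 between miR-181a-5p and miR-181c-5p, and 0.264 between miR-181a-5p and miR-181b-5p. These values describe 6 libraries that share their depth and scaling across miRNAs.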

How the data were processed

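Small RNA of immune cells from dissociated livers was sequenced in 6 libraries (QIAseq miRNA kit, NextSeq 550). Per the labels and the series' design text, the authors aligned and counted reads in QIAGEN's GeneGlobe portal; the deposited values are raw read counts for each mature miRNA, with no normalization. Build mm10 is named in the submitters' processing notes. The sources do not state the aligner, the miRNA annotation or whether molecular identifiers were used.

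The analysis used R 4.3.3 and edgeR 4.0.16, with plots in Python 3.11.15. filterByExpr kept 297 miRNAs. A model of the 3 groups was fitted to all 6 libraries with TMM factors (3 residual degrees of freedom), and contrasts were tested with the robust quasi-likelihood F-test. The Benjamini-Hochberg adjustment ran over the 297 miRNAs, and calls were made under an adjusted p of 0.05. A standard error is the size of the log2 fold change divided by the root of F. The procedure was run on counts simulated with known changes larger than those estimated for the miR-181 5p strands. Those runs do not show what it detects at smaller differences. DESeq2 1.42.0, limma 3.58.1, other scalings, other filters and left-out libraries were alternatives. The members, the lists and the naming rule (all members and 3p strands, the 3 most abundant of each related list, and the 5 miRNAs most like miR-181a-5p and miR-181b-5p) were chosen with earlier results of these data known.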

Additional observations from a re-analysis of the deposited data

How the results depend on the processing

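Of 180 refitted values of the 4 strands over the 3 comparisons, 157 kept their direction, 23 changed sign and 0 were called; the lowest adjusted p was 0.116, for miR-181a-5p in ConA+Vehicle against Vehicle. In ConA+Vehicle against Vehicle, miR-181b-5p was at log2 -0.006 with RLE factors and -0.004 in DESeq2. In ConA+D8THC against ConA+Vehicle, miR-181a-5p was at -0.071 with upper-quartile factors; miR-181b-5p at 0.041 with RLE factors, 0.004 with library totals, 0.001 with no filter, 0.035 in DESeq2 and 0.088 with hepatocyte and endothelial markers left out; miR-181d-5p at 0.011 (RLE), 0.002 (DESeq2) and 0.05 (markers left out); and miR-181a-1-3p at 0.077 (RLE), 0.028 (library totals), 0.042 (no filter), 0.08 (DESeq2) and 0.126 (markers left out). In ConA+D8THC against Vehicle, miR-181b-5p was at -0.037 with upper-quartile factors. RLE factors moved the median of all miRNAs from 0.10 to -0.006 in the first comparison and from -0.042 to 0.062 in the second, where leaving out the markers moved it to 0.117 and upper-quartile factors to -0.151.

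Leaving out single libraries gave, for ConA+Vehicle against Vehicle, miR-181b-5p from -0.045 to 0.254, miR-181c-5p from -0.583 to 0.05, miR-181d-5p from -0.534 to 0.224, miR-181a-1-3p from 0.185 to 0.889, miR-181c-3p from 0.325 to 1.872 and miR-342-5p from -0.919 to 0.122. For ConA+D8THC against ConA+Vehicle it gave miR-181a-5p from -0.181 to 0.27, miR-181b-5p from -0.199 to 0.117, miR-181c-5p from -0.497 to 0.193, miR-181d-5p from -0.446 to 0.362 and miR-181a-1-3p from -0.141 to 0.182. For ConA+D8THC against Vehicle it gave miR-181a-5p from -0.619 to -0.144, miR-181b-5p from -0.096 to 0.218, miR-181d-5p from -0.326 to -0.106, miR-181a-1-3p from 0.182 to 0.874 and miR-181c-3p from 0.478 to 2.036. The difference in the log2 arm ratio of miR-181a-1 between ConA+D8THC and ConA+Vehicle ran from -0.223 to 0.327. A group left with 1 library was assumed to vary like the others.

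Over all miRNAs, calls in ConA+Vehicle against Vehicle ran from 67 (without ConA+Vehicle replicate 1) to 129 with libraries left out, beside 109. In ConA+D8THC against Vehicle they ran from 63 (without ConA+D8THC replicate 1) to 112, beside 97. In ConA+D8THC against ConA+Vehicle they ran from 8 to 40 (without Vehicle replicate 2), beside 11, and were 17 with upper-quartile factors, 19 with no filter, 17 in DESeq2, 18 with 2 against 2 libraries and 26 at an adjusted p under 0.1. With the replicate number as a block they were 44. The labels do not say whether same-numbered libraries share a day or batch, so the block was kept as an alternative; deviations of same-numbered libraries correlated at 0.203, 0.073 and 0.238 in the 3 comparisons. With the replicate block, miR-181a-5p stayed at log2 -0.439 in ConA+Vehicle against Vehicle (adjusted p = 0.126). The cause of these moves was not tested. Counts of 15 to 21 for miR-181c-5p and miR-181d-5p in ConA+Vehicle limit what could be detected there.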
